A study of Homo sapiens with 6 samples.

Results

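Focal adhesion and actin genes were followed in MDA-MB-231, an established triple-negative human breast cancer cell line, after silencing of SDC1. The list holds 46 genes that were named for their known roles and sorted into adhesion plaque proteins, linkers between membrane and actin, factors of nucleation and elongation, factors of filament turnover, and filaments with their crosslinkers and motors. It was drawn up with earlier results of these data known, so shares of the list past the threshold are descriptions and not tests. Of the 46 genes, 41 were measured by 126 probe sets that the array annotation ties to a single gene, among 19775 genes and 54613 probe sets in all. WASF1, TPM3, FLNA and FLNC have no such probe set in the annotation used, and ACTG1 occurs in it through 9 probe sets that are also tied to ACTB, so these 5 genes were not analysed here. The study comprised 6 Affymetrix arrays in 2 groups of 3 replicates of this line, which the study calls independent, transfected either with small interfering RNA (siRNA) that targets SDC1 or with a control siRNA, called negative in the labels. Both groups were thus transfected, untransfected cells were not analysed here, and the labels used here name neither a dose nor a time. Each probe set's log2 values are centred on its own median over the 6 arrays, so they show differences between arrays and not levels. A fold change sets the SDC1 siRNA arrays against the control arrays, n = 3 per group, and comes with its standard error (SE) from a limma fit over all genes; the threshold was an adjusted p of 0.05 (Benjamini-Hochberg).

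Focal adhesions are plaques in which integrins, the receptors for the extracellular matrix, are joined to actin filaments by talin, vinculin and many adaptors. Talin and kindlin bind integrin tails and switch the receptor on, while zyxin and VASP family proteins gather where filaments bear tension. Filament growth is started by the Arp2/3 complex and by formins, cofilin severs old filaments, and myosin II pulls on them. Syndecan-1, the product of SDC1, is a membrane proteoglycan that works beside integrins in the attachment of breast cancer cells.

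SDC1 was at 1.13, 1.32 and 1.09 in the control arrays and at -1.14, -1.16 and -1.43 after SDC1 siRNA, a fall to 18.7% of control (log2 fold change -2.42, SE 0.0971, adjusted p = 2.18e-06). By their poly-A spike-in controls, which are added during preparation, the arrays fell into 2 sets, called spike-in batches here, which no label names. The first set held SDC1 siRNA replicates 1 and 2 with control replicate 1 (spike-in means of 0.35 to 0.60). The second held SDC1 siRNA replicate 3 with control replicates 2 and 3 (-0.41 to -0.38). Of the markers fixed for the line, VIM and CD44 fell by 0.62 and 0.68, AXL rose by 0.25 and CAV1 was at 0.04 (adjusted p = 0.638), while the epithelial marker CDH1 fell by 0.55. The receptor genes fixed in the same group as CDH1 did not pass the limma threshold. ERBB2 was at 0.21 (adjusted p = 0.0692), PGR at 0.14 (adjusted p = 0.441) and ESR1 at 0.02 (adjusted p = 0.882). Of 6 measured markers of leukocytes and endothelium 0 passed the limma threshold and 1 had an unadjusted p under 0.05 (CD3E, 0.31, adjusted p = 0.0588). Whether a marker was absent cannot be read from centred values.

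The focal adhesion and actin genes changed in both directions. Of the 41 measured, 11 rose and 9 fell, or 48.8% past the threshold, where 28.1% of all genes passed, 13.0% higher and 15.1% lower. Each gene also has a coarse brightness class, read from the numeric steps of its values. The class is no detection call. Of the markers above, CDH1, ERBB2, ESR1, PECAM1 and VWF were in the brightest class, as were VIM, CD44, AXL and CAV1. PGR, CD3E and PTPRC were in the middle class and CDH5 and LYZ in the dimmest. In the brightest class, which held 37 of the 41 genes, 40.7% of all genes passed and 19 of those 37 (51.4%). The median log2 fold change of the 41 genes was -0.04 and their mean 0.04, against a median of 0.00 over all genes. Among the 20 that passed, the 3 largest rises were those of TLN1, RDX and ZYX, whose order depends on the probe sets read, and the largest falls those of FERMT2, FSCN1 and WASF2. Of these changes 3 rises (TLN1, RDX and ZYX) and 1 fall (FERMT2) reached 1.5-fold. Of all 19775 genes, 612 rises and 768 falls past the threshold did so. For 26 of the 41 genes (63.4%) every array of one group lay above every array of the other, against 41.7% of all genes. Within the brightest class the shares were 67.6% of the listed genes and 57.1% of all genes.

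**Figure D1:**
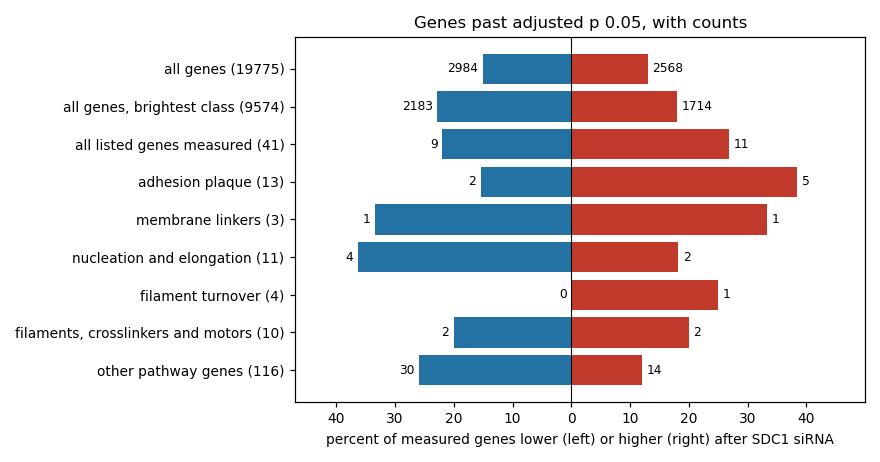
Percent of measured genes past the threshold, with lower genes drawn to the left and higher genes to the right of 0, for all genes, the brightest class, the listed genes and their role groups, and other genes of the pathway. Numbers beside the bars are counts of genes and numbers in brackets genes measured; the listed genes had 11 higher and 9 lower, and the adhesion plaque 5 higher and 2 lower.

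Promoter windows from RefSeq (GRCh38.p14), spanning 250 bases before to 50 bases after a gene's start, were found for 39 of the 46 genes, 74 windows in all, and not for PTK2, PARVA, WASF2, CTTN, PFN2, ACTB and FSCN1. The CArG box, the element bound by serum response factor (SRF) in many cytoskeletal genes, was searched on both strands by its name's consensus. It was found in 5 of the 74 windows (6.76%), against 1.29% of all 35116 windows. The 5 genes were LPP, ACTN1, TPM4, ACTG1 and FLNA, the last pair not measured. The windows of the 3 measured genes are shown as the ones that hold this element. LPP was at -0.20, ACTN1 at 0.03 and TPM4 at -0.03, none past the limma threshold and LPP alone at an unadjusted p under 0.05. In 3 genes this says nothing of the element. Of all 19775 genes 28.1% passed the limma threshold and 7429 had an unadjusted p under 0.05. Each window is read 5′ to 3′ on the gene's strand, with the CArG box in capitals. The windows start at position -223, -211 and -213 from the gene's start. The windows lie at chr3:188212489-188212578 (plus strand), chr14:68977688-68977777 (minus strand) and chr19:16067325-16067414 (plus strand).
LPP: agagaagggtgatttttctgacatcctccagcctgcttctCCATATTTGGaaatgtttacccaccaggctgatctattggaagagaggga
ACTN1: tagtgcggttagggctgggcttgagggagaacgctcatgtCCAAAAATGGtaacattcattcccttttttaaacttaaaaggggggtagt
TPM4: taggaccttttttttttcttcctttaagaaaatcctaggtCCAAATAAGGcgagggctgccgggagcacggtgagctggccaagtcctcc

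The windows of the 4 genes that changed at least 1.5-fold are shown because the results turn on these genes. The last 120 bases before the start are given, with GC boxes (GGGCGG, either strand) in capitals. They lie at chr9:35732196-35732315 (minus strand) for TLN1, chr11:110296615-110296734 (minus) for RDX, chr7:143381225-143381344 (plus) for ZYX and chr14:52951051-52951170 (minus) for FERMT2.
TLN1: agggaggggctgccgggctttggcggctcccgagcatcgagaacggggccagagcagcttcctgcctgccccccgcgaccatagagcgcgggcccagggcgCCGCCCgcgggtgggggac
RDX: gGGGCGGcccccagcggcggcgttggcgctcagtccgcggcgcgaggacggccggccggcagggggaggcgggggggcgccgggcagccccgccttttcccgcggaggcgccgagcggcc
ZYX: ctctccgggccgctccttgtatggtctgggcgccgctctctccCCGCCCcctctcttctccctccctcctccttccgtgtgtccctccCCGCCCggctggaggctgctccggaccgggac
FERMT2: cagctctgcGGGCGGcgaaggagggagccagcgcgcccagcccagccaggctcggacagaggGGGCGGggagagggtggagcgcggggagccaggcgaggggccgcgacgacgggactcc
All 4 stretches are rich in G and C, at 76.7% in TLN1, 85.8% in RDX, 72.5% in ZYX and 78.3% in FERMT2, against a median of 60% for the same 120 bases of all windows. GC boxes were in 70.3% of the listed genes' windows and in 45.0% of all windows. The site GGAATG, bound by TEAD factors, was in 17.6% against 14.0%, and the AP-1 site TGANTCA in 12.2% against 7.71%, both also searched on both strands. None of the 4 genes above held either site or a CArG box, which most windows lack, and matches of different motifs overlapped in 0 of the 74 windows. Some genes have several windows, which can overlap, and a match is a stretch of letters and not a measured site.

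Of the adhesion plaque genes 5 of 13 rose and 2 fell. That is 53.8% past the threshold, against 28.1% of all genes and 40.7% of the brightest class. TLN1 and ZYX were the largest rises and FERMT2 the larger fall. TLN1 encodes talin-1, the rod that links integrin tails to actin. It was at -0.97, -0.83 and -0.48 in the control arrays and at 0.48, 0.73 and 0.98 after SDC1 siRNA. All SDC1 siRNA arrays were above all control arrays, and TLN1 rose 2.80-fold (log2 fold change 1.49, SE 0.151, adjusted p = 0.00017). Averaging its 3 probe sets, or reading brightness from all 6 arrays, gave a rise of 0.67 (adjusted p = 0.000236 and 0.000262). The spread within each group, 0.25 (SD, n = 3) in both, was wider than the 0.0763 of the median listed gene. The value rests on the bright probe set, while the dimmer ones gave 0.61 (adjusted p = 0.000445) and -0.08 (adjusted p = 0.608). TLN2, encoding the second talin, was at -0.04 (SE 0.0602, adjusted p = 0.699), and its 3 probe sets, all of the middle brightness class, lay between -0.08 and 0.01.

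ZYX, which encodes zyxin, a LIM protein recruited to adhesions under tension, was at -0.62, -0.38 and -0.35 in the control arrays and at 0.35, 0.45 and 0.45 after SDC1 siRNA. The groups did not overlap, and ZYX rose 1.83-fold (log2 fold change 0.87, SE 0.0836, adjusted p = 0.000122), with both probe sets higher at 0.87 and 0.82. LPP, a close relative of zyxin, was at -0.20 (SE 0.0687, adjusted p = 0.0656) as the mean of 4 bright probe sets, and its 8 probe sets ran from -0.39 to 0.43. The highest of these, a cross-hybridising and dimmer one, passed the threshold by itself (adjusted p = 0.0177).

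Scaffolds of the adhesion kinase pathway rose by small amounts. PXN, encoding paxillin, was between -0.18 and -0.11 in the control arrays and between 0.11 and 0.18 after SDC1 siRNA, a rise of 0.28 (SE 0.058, adjusted p = 0.00664). BCAR1, encoding the docking protein p130Cas, was between -0.15 and -0.08 and between 0.08 and 0.26, a rise of 0.32 (SE 0.0677, adjusted p = 0.00837). Both rises rest on the bright probe set, and neither passed when all probe sets were averaged (PXN 0.23, adjusted p = 0.232, and BCAR1 0.18, adjusted p = 0.073). The PXN probe set of largest variance was at 0.18 (adjusted p = 0.633), and BCAR1 did not pass when brightness was read from all 6 arrays (adjusted p = 0.0749). PTK2, which encodes focal adhesion kinase, a tyrosine kinase that binds both, was at -0.10 (SE 0.0614, adjusted p = 0.285). Its bright probe sets were at -0.12 and -0.08, whereas dimmer ones were at 0.35 (adjusted p = 0.0146) and 0.32 (adjusted p = 0.0649).

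Kindlin-2 and alpha-parvin transcripts fell, and that of their partner ILK rose. FERMT2 encodes kindlin-2, which binds integrin tails beside talin. It was at 0.31, 0.32 and 0.43 in the control arrays and at -0.34, -0.39 and -0.35 after SDC1 siRNA. The arrays within each group lay close together and the groups were far apart, so that FERMT2 fell to 61.2% of control (log2 fold change -0.71, SE 0.0612, adjusted p = 7.26e-05), and all 3 probe sets fell, by 0.47 to 0.80. PARVA, encoding the actin-binding adaptor alpha-parvin, fell by 0.29 (SE 0.0603, adjusted p = 0.00766), with all of its 7 probe sets below 0, from -0.50 to -0.07. ILK, the pseudokinase that holds parvin and kindlin in one complex, rose by 0.20 (SE 0.06, adjusted p = 0.035), between -0.15 and -0.06 in the control arrays and between 0.06 and 0.14 after SDC1 siRNA. The ILK call was lost in 8 of 15 other settings, among them each without a control array (control replicates 1, 2 and 3, adjusted p = 0.107, 0.0597 and 0.0662) and without SDC1 siRNA replicates 1 and 2 (adjusted p = 0.108 and 0.111). The PARVA call was lost when the probe set of largest variance was read (-0.13, adjusted p = 0.742).

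Vinculin and the tensins did not pass the threshold. VCL, encoding vinculin, which reinforces the talin to actin link, was at 0.17, 0.11 and 0.02 in the control arrays and at -0.03, -0.02 and -0.29 after SDC1 siRNA, a difference of -0.21 (SE 0.0858, adjusted p = 0.104). The groups did not overlap, SDC1 siRNA replicate 3 was the lowest array, and the dimmer probe set was at -0.44 (adjusted p = 0.0173). TNS1, encoding tensin-1, an adaptor of older adhesions, was at 0.20, 0.48 and 0.04 and at -0.51, -0.05 and -0.04, a difference of -0.44 (SE 0.15, adjusted p = 0.0585). Its other 4 probe sets lay between -0.06 and 0.11. TNS1 passed without control replicate 3 (-0.54, adjusted p = 0.0438). TNS3 was at 0.03 (SE 0.111, adjusted p = 0.881) with overlapping groups.

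**Figure D2:**
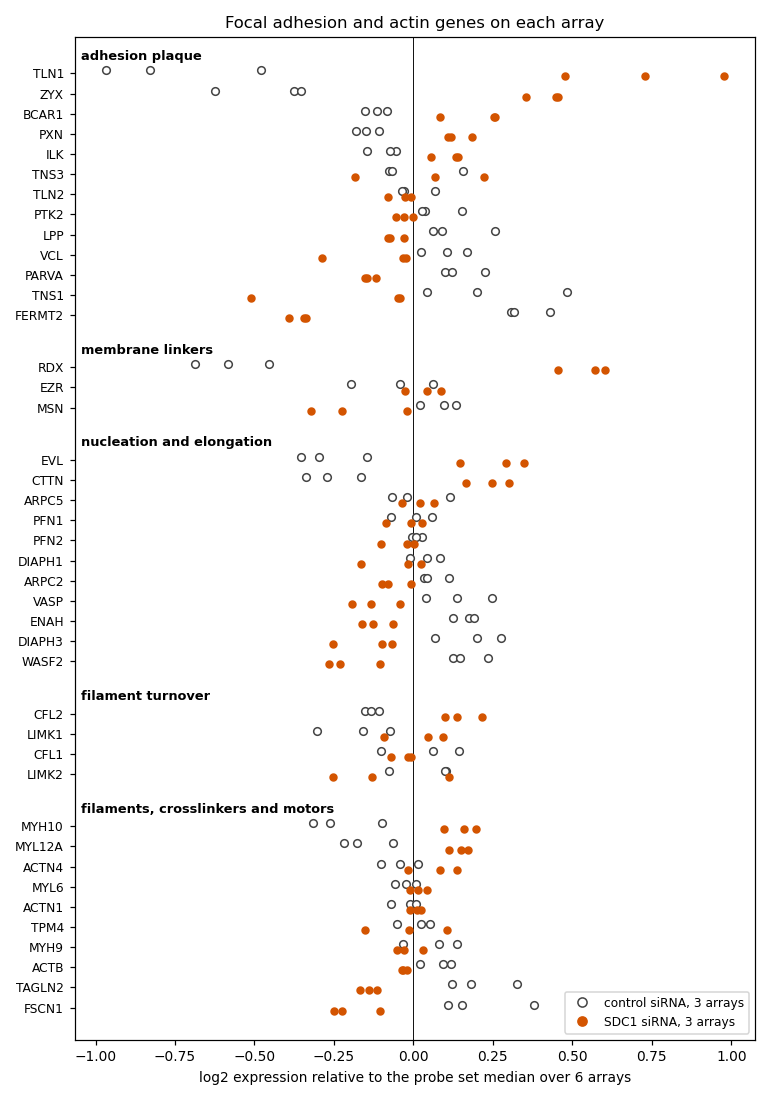
Log2 expression of each of the 41 genes, relative to the probe set median, in the 3 control siRNA arrays (open circles) and the 3 SDC1 siRNA arrays (filled circles), sorted by role and then by fold change. TLN1, RDX and ZYX show the widest gaps with SDC1 siRNA arrays on the right, and FERMT2 the widest with control arrays on the right.

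The ezrin, radixin and moesin family, which ties actin to membrane proteins, was split. RDX, encoding radixin, was at -0.69, -0.58 and -0.46 in the control arrays and at 0.60, 0.46 and 0.57 after SDC1 siRNA. The groups were apart on all arrays, and RDX rose 2.17-fold (log2 fold change 1.12, SE 0.0769, adjusted p = 2.32e-05). Its 3 bright probe sets gave 0.98, 1.04 and 1.33, and a dimmer one gave 0.03 (adjusted p = 0.908). MSN, encoding moesin, was at 0.02, 0.10 and 0.13 and at -0.32, -0.22 and -0.02, a fall of 0.27 (SE 0.0845, adjusted p = 0.0419). SDC1 siRNA replicate 3 lay nearest to the control arrays, a dimmer MSN probe set was at 0.25 (adjusted p = 0.0623), and the call was lost in 8 of 15 other settings, including without any 1 of control replicates 1, 2 and 3 (adjusted p = 0.0596, 0.1 and 0.115) or of SDC1 siRNA replicates 1 and 2 (adjusted p = 0.137 and 0.116), and with all probe sets averaged (-0.01, adjusted p = 0.906). EZR, encoding ezrin, was at 0.09 (SE 0.0778, adjusted p = 0.435) with overlapping groups, and its 5 probe sets were all above 0, from 0.03 to 0.22.

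Among nucleation and elongation genes 4 of 11 fell and 2 rose, or 54.5%, against 28.1% of all genes and 40.7% of the brightest class. WASF2 encodes WAVE2, which turns on the Arp2/3 complex at the leading edge. It was at 0.13, 0.23 and 0.15 in the control arrays and at -0.23, -0.10 and -0.26 after SDC1 siRNA. The groups did not overlap, and WASF2 fell by 0.37 (SE 0.0672, adjusted p = 0.00366) on 2 bright probe sets at -0.40 and -0.34, while a dimmer one gave 0.15 (adjusted p = 0.553). With all probe sets averaged WASF2 was at -0.20 (adjusted p = 0.132). The Arp2/3 subunit genes ARPC2 and ARPC5 were at -0.13 (SE 0.0592, adjusted p = 0.163) and 0.01 (SE 0.0687, adjusted p = 0.962).

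CTTN, encoding cortactin, which holds Arp2/3 branches in place and marks invadopodia, rose. It was at -0.17, -0.27 and -0.34 in the control arrays and at 0.25, 0.30 and 0.17 after SDC1 siRNA, a 1.41-fold rise (log2 fold change 0.50, SE 0.0696, adjusted p = 0.000902) carried by the bright probe set. The other 4 probe sets lay between -0.16 and 0.10 and did not pass, so that the average of all 5 was 0.08 (adjusted p = 0.431).

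The Ena/VASP proteins protect growing filament ends from capping, and their 3 genes parted. ENAH was at 0.17, 0.12 and 0.19 in the control arrays and at -0.16, -0.13 and -0.06 after SDC1 siRNA, a fall by 0.28 (SE 0.0589, adjusted p = 0.00749). Its 6 probe sets ran from -0.67 to 0.01, and 3 of them passed, all lower. VASP was at 0.04, 0.25 and 0.14 and at -0.19, -0.13 and -0.04, a fall of 0.26 (SE 0.0741, adjusted p = 0.0277). EVL was at -0.30, -0.15 and -0.35 and at 0.29, 0.35 and 0.15, a 1.44-fold rise (log2 fold change 0.53, SE 0.0803, adjusted p = 0.00142), with a dimmer probe set at 0.11 (adjusted p = 0.499). None of the 3 genes had overlapping groups. The VASP call was lost without control replicate 2 (adjusted p = 0.091), control replicate 3 (adjusted p = 0.0652), SDC1 siRNA replicate 1 (adjusted p = 0.0983) or SDC1 siRNA replicate 2 (adjusted p = 0.0789).

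Of the formins DIAPH3 fell, and neither DIAPH1 nor the profilins passed the threshold. DIAPH3, a formin that drives filopodia, was at 0.07, 0.20 and 0.28 in the control arrays and at -0.10, -0.25 and -0.07 after SDC1 siRNA, a fall of 0.32 (SE 0.0786, adjusted p = 0.0152). It did not pass without control replicate 3 (-0.28, adjusted p = 0.0526), without SDC1 siRNA replicate 2 (-0.27, adjusted p = 0.0564), with the probe set of largest variance (-0.29, adjusted p = 0.113) or with all probe sets averaged (-0.18, adjusted p = 0.108). DIAPH1, a formin that nucleates unbranched filaments, was at -0.09 (SE 0.0693, adjusted p = 0.391). PFN1 and PFN2, which encode the profilins that feed actin monomers to formins, were at -0.02 (adjusted p = 0.846) and -0.05 (adjusted p = 0.595), and their groups overlapped.

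In filament turnover 1 of 4 genes passed, or 25%, which is below the 28.1% of all genes. CFL2, encoding the muscle form of cofilin, was at -0.15, -0.13 and -0.11 in the control arrays and at 0.14, 0.10 and 0.22 after SDC1 siRNA, a 1.22-fold rise (log2 fold change 0.28, SE 0.0593, adjusted p = 0.00752), and its 3 probe sets each rose, by 0.24 to 0.34. CFL1, the cofilin of most non-muscle cells, was at -0.07 (SE 0.0747, adjusted p = 0.58) with overlapping groups and probe sets from -0.09 to 0.11. The LIM kinases, which switch cofilin off by phosphorylation, had all their probe sets below the brightest class. LIMK1 was at 0.19 (SE 0.0807, adjusted p = 0.115), though 0.37 in batch 1 and 0.02 in batch 2. LIMK2 was at -0.13 (SE 0.1, adjusted p = 0.394), with -0.29 and 0.10 in the batches.

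Of filament, crosslinker and motor genes 2 of 10 rose and 2 fell. These make 40%, against 28.1% of all genes and 40.7% of the brightest class. ACTB, encoding beta-actin and often used as a reference gene, was at 0.02, 0.09 and 0.12 in the control arrays and at -0.03, -0.04 and -0.02 after SDC1 siRNA, a difference of -0.11 (SE 0.0573, adjusted p = 0.218). Its groups did not overlap, and its 3 probe sets, all of the cross-hybridising kind and therefore open to ACTG1 transcript, were at -0.09, -0.11 and -0.12. The manufacturer's actin control probe sets allow a check of RNA integrity on these arrays, as the 5′ minus the 3′ value. That difference was -0.11 to -0.03 on the arrays of batch 1 and 0.08 to 0.16 on those of batch 2, whereas by group it ran from -0.11 to 0.16 in control arrays and from -0.05 to 0.09 after SDC1 siRNA. Its part in the ACTB values was not tested.

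The bundling protein fascin and transgelin-2 fell. FSCN1, whose product packs filaments in filopodia and invadopodia, was at 0.15, 0.38 and 0.11 in the control arrays and at -0.22, -0.25 and -0.10 after SDC1 siRNA, a fall to 75.5% of control (log2 fold change -0.41, SE 0.0845, adjusted p = 0.00728), on both probe sets (-0.43 and -0.38). Both FSCN1 probe sets are of the middle brightness class. TAGLN2, which stabilises filaments, was at 0.18, 0.33 and 0.12 and at -0.17, -0.11 and -0.14, a fall to 78.5% of control (log2 fold change -0.35, SE 0.0691, adjusted p = 0.00554), also on both probe sets (-0.34 and -0.36). For both genes control replicate 2 was the highest array, and the groups did not overlap.

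Non-muscle myosin II genes included a pair that rose. MYH10, the heavy chain of myosin IIB, was at -0.10, -0.26 and -0.31 in the control arrays and at 0.20, 0.16 and 0.10 after SDC1 siRNA, a 1.30-fold rise (log2 fold change 0.38, SE 0.073, adjusted p = 0.00503), with both probe sets higher (0.38 and 0.55). MYH9, the heavy chain of myosin IIA, was at -0.08 (SE 0.0661, adjusted p = 0.442). For MYL12A, a regulatory light chain, the mean of the bright probe sets rose by 0.30 (SE 0.0633, adjusted p = 0.00801), yet a dimmer one fell by 0.51 (adjusted p = 0.0015), the only listed gene with probe sets past the threshold in both directions. With all 4 probe sets averaged MYL12A was at 0.17 (adjusted p = 0.184), and its probe set of largest variance was at 0.60 (adjusted p = 0.0538). MYL12A and MYL12B are near-identical copies that the array may not tell apart, and MYL12B fell by 0.19 (SE 0.0555, adjusted p = 0.033). MYL6, the essential light chain, was at 0.04 (adjusted p = 0.67).

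The remaining structural genes did not pass the threshold. ACTN1 and ACTN4, encoding the alpha-actinins that crosslink filaments, were at 0.03 (SE 0.0565, adjusted p = 0.738) and 0.11 (SE 0.0661, adjusted p = 0.269). TPM4, a tropomyosin that coats filaments, was at -0.03 (SE 0.0771, adjusted p = 0.837). In all 3 gene values the arrays of the groups overlapped. The standard errors of these gene values were near or below the median of 0.0746 over all genes. ACTN1 was read from 1 bright probe set. Its cross-hybridising bright ones were at -0.13 and -0.19 (adjusted p = 0.232 and 0.0895) with groups apart, and a dimmer one at 0.12 (adjusted p = 0.41).

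**Figure D3:**
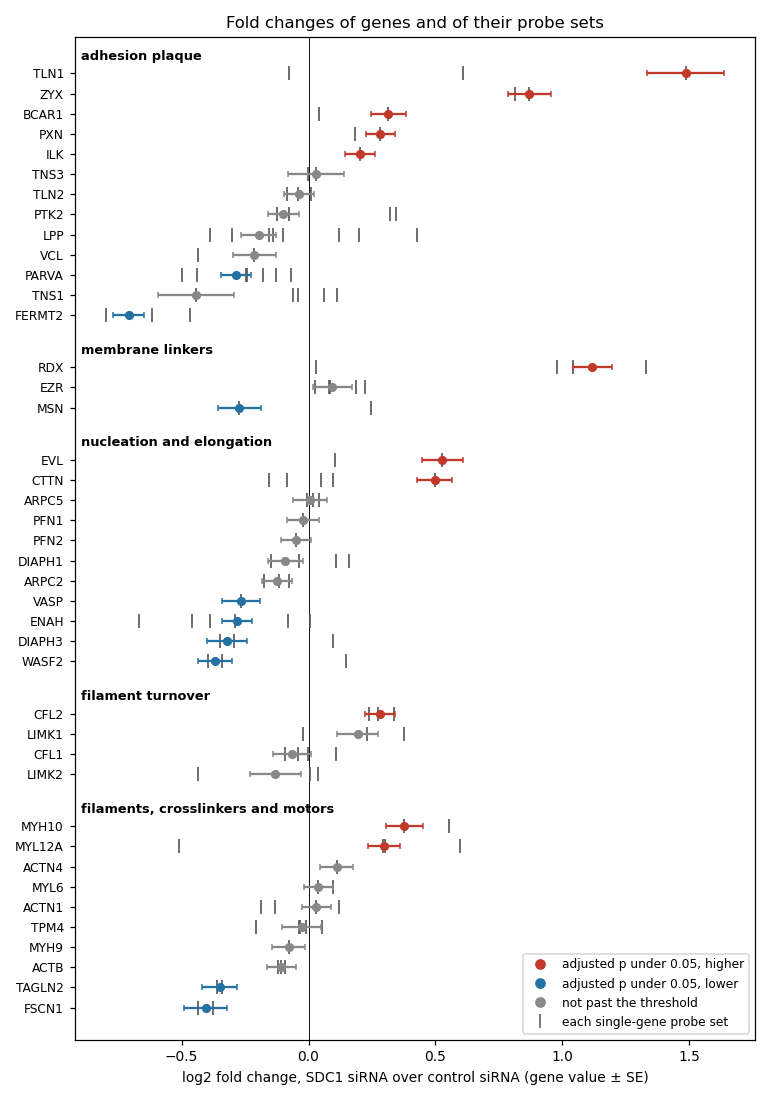
Log2 fold change of each of the 41 genes (circles, with SE as bars, coloured by whether the threshold was passed) and of each of their 126 probe sets (ticks), sorted by role. The ticks of TLN1, RDX, MYL12A, LPP, ENAH and CTTN are spread widely, and those of FERMT2, CFL2, TAGLN2 and FSCN1 all lie on the side of the gene value.

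Probe sets of a gene often differed. Tested one by one among all probe sets, 19 of the 126 rose and 17 fell, 28.6% against 19.8% of all 54613. The listed genes' probe sets were mostly bright: in the brightest class 27 of 72 (37.5%) passed against 33.6% of all probe sets, and in the middle class 9 of 50 (18%) against 17.5%. Every probe set passed, in 1 direction, for ZYX, FERMT2, CFL2, TAGLN2, FSCN1 and MYH10, which have between 2 and 3 each. ILK, VASP and MSN had no probe set past the threshold over all probe sets (adjusted p of the bright ones 0.0792, 0.0544 and 0.0716), although their gene values passed over all genes.

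Related genes were compared within arrays, for 8 pairs chosen after their values were seen. The difference TLN1 minus TLN2 went from -0.76 ± 0.199 (SD, n = 3) in the control arrays to 0.77 ± 0.243 (SD, n = 3) after SDC1 siRNA. RDX minus MSN shifted by 1.39 and RDX minus EZR by 1.02. EVL minus ENAH and EVL minus VASP shifted by 0.81 and 0.79, MYH10 minus MYH9 by 0.46 and CFL2 minus CFL1 by 0.35. In these 7 pairs no array of one group overlapped the other, and each had an exact 2-sided permutation p = 0.1, the smallest that 3 against 3 arrays can give (0.114 adjusted over the 8 pairs), so the design cannot reach 0.05. Each of the 7 holds a gene already past the limma threshold with groups apart. The adjustment does not allow for the choice of pairs, so these p-values describe the pairs and add no support. LIMK1 minus LIMK2 shifted by 0.33 with overlapping groups (exact permutation p = 0.3).

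Differences were also taken within each spike-in batch, and the batches share no array. None of the 20 genes past the threshold had overlapping groups, which by itself gives them the same sign in both batches, so no count of signs is read from them. TLN1 was at 1.57 and 1.63, RDX at 1.21 and 1.09, ZYX at 1.03 and 0.82 and FERMT2 at -0.67 and -0.72 in the first and the second batch. The first batch holds 1 control array and the second 1 SDC1 siRNA array, so these values have no test.

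**Figure D4:**
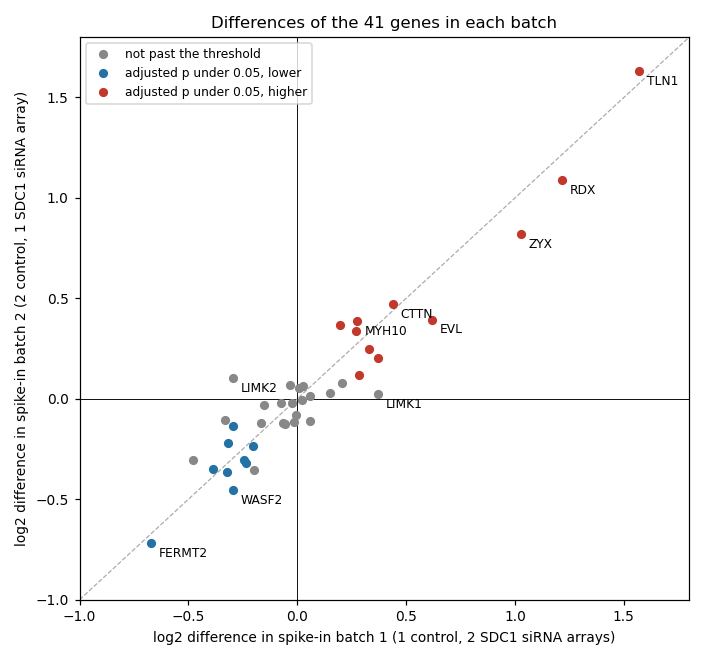
Log2 difference, SDC1 siRNA minus control siRNA, of the 41 genes in spike-in batch 1 (horizontal axis) and batch 2 (vertical axis); the dashed line marks equal values. The values run from FERMT2 at -0.67 and -0.72 to TLN1 at 1.57 and 1.63, and the genes past the threshold have equal signs on both axes because their groups do not overlap.

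Other genes of the same machinery, 116 measured of 124 listed by role, had 14 higher and 30 lower, or 37.9% past the threshold, between the 28.1% of all genes and the 40.7% of the brightest class, with a median of -0.05. Nucleation and elongation genes had 5 of 26 higher and 9 lower, or 53.8% past the threshold. ARPC1A, a subunit of the Arp2/3 complex, fell by 1.14 (SE 0.0721, adjusted p = 1.51e-05), and FMNL1, a formin, by 0.63 (SE 0.0678, adjusted p = 0.000228). CYFIP2, a subunit of the WAVE complex in which WASF2 works, rose by 1.19 (SE 0.106, adjusted p = 8.67e-05; 1.88 on its probe set of largest variance), and RAPH1, which encodes lamellipodin, a recruiter of Ena/VASP proteins, by 0.69 (SE 0.0807, adjusted p = 0.000348).

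Adhesion plaque genes beyond the 13 had 2 of 32 higher and 5 lower, a share of 21.9% that is below that of all genes. FERMT3, encoding kindlin-3 of blood cells, was down by 0.82 (SE 0.111, adjusted p = 0.000765) on 1 probe set of the middle class. That is the same side as FERMT2, while FERMT1 of the same family was at 0.13 (SE 0.0606, adjusted p = 0.15). Membrane linker genes had 4 of 8 lower, and 0 higher, or 50% past the threshold in a group of few genes. The largest fall among them was that of EPB41L2, which joins spectrin and actin to the membrane, at -0.86 (SE 0.0737, adjusted p = 7.02e-05). In filament turnover 2 of 20 rose and 4 fell. That share, 30%, lies between the 28.1% of all genes and the 40.7% of the brightest class. SSH1, the slingshot phosphatase that switches cofilin on, was up by 0.53 (SE 0.0906, adjusted p = 0.00259). Filament and motor genes had 4 of 18 higher and 3 lower, a share of 38.9% that also lies between them. Among these the smooth muscle light chain gene MYL9 was up by 0.72 (SE 0.0739, adjusted p = 0.00018). For MYL9 the probe set of largest variance, which is also the one read with brightness from all 6 arrays, gave 1.35.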

How the data were processed

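Biotin-labelled cRNA from 6 total RNA samples was hybridised to 6 Affymetrix arrays. The deposited values are log2 expression made by the authors with RMA, per the submitters' processing notes, with no version given. In the deposited log2 values every probe set has a median within 5e-07 of 0, and this centring was read from the values. Gene names come from GEO's platform annotation, and older symbols were updated through a RefSeq table. The numeric step of the 3 highest values placed each probe set at a log2 level of 2 to 4, 4 to 8 or 8 to 16. Of the brightest class 16.6% had a coarser step than such a level leaves, so some may sit in too high a class. For each gene, the probe sets tied to it alone and lying in its brightest class were averaged; cross-hybridising ones (_x_at) entered where nothing else was available. Control probe sets, 62 in number, were left out of the tests.

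The groups were compared by limma 3.58.1 under R 4.3.3 (lmFit and eBayes, 2-sided, no covariates), over all 19775 genes and separately over all 54613 probe sets, and the fit was tested on simulated data. Replicate numbers were not used to pair the arrays in the main fit. Deviations from the group means correlated at 0.01, 0.08 and 0.10 for same-numbered arrays and at -0.12 to 0.04 for differently numbered ones. These small values do not settle whether the numbers pair the arrays. The number of arrays limits the precision. The listed genes, their roles and the other lists were chosen with earlier results of these data known. Named are all measured listed genes, SDC1 and, of the other pathway genes, the 4 largest rises and 4 largest falls past the threshold whose groups did not overlap. MYL12B and FERMT1 are named too, each beside a listed relative. One role group of the other pathway genes is counted in their total and not reported here by itself. Alternatives tried were the choice of probe sets, the brightness class, a filter on dim genes, a robust prior, centring and quantile normalization, blocks for replicate and spike-in batch, and leaving out each array.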

Additional observations from a re-analysis of the deposited data

How the results depend on the processing

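Of the 20 listed genes past the threshold 10 passed, in the same direction, in all 15 other settings tested: TLN1, ZYX, FERMT2, RDX, ENAH, EVL, CFL2, TAGLN2, FSCN1 and MYH10. No matching share was taken over all genes or probe sets. This count and the probe set counts below are therefore not shown to be particular to the list. TLN1 passed at a smaller size, 0.67, with all probe sets averaged and with brightness from all 6 arrays, where RDX (0.85 and 1.33) and ZYX (0.87 in both) were above it. The average of all probe sets also left out cross-hybridising ones where a gene had any other. For ZYX it therefore repeats the value given above and is no separate check. Of the 21 listed genes that did not pass, 19 passed in none of the 15 settings, the exceptions being VCL and TNS1. No listed gene past the threshold changed sign in any of these settings. With all single-gene probe sets averaged, 7 listed genes rose instead of 11. Over the settings that leave out 1 array, between 23 and 36 probe sets of the listed genes passed, against 36 with all arrays, the lowest being without SDC1 siRNA replicate 1. SDC1 was at -2.63 within the second spike-in batch. With the replicate block 5435 of all genes and 33 probe sets of the listed genes passed. Whether the numbers pair the arrays was not settled. In that setting 10 higher and 10 lower listed genes passed, ILK being lost (adjusted p = 0.0579) and TNS1 gained (-0.44, adjusted p = 0.0426). Blocking on spike-in batch, a setting that for the probe sets was chosen after seeing the data, ILK (adjusted p = 0.0593) and MSN (adjusted p = 0.0589) were lost and VCL gained (-0.27, adjusted p = 0.0223). Signal over background is not known for these values, which limits what the dim probe sets can show.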
